A study of Mus musculus with 6 samples.

Results

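The genes described here encode the core machinery of DNA replication, 41 genes from the origin recognition complex to the ligase that seals Okazaki fragments. They were chosen by exact gene symbol, and all 41 were found among the 18193 genes read on the arrays. Where a gene had several probe sets, the brightest one (by mean over the 6 arrays) stands for it. RNA came from R1 mouse embryonic stem cells, a line of (129X1 x 129S1)F1 origin, either Sirt1+/+ (wild type) or Sirt1-/- (knockout), with 3 arrays per genotype. Sirt1 encodes an NAD-dependent protein deacetylase. Cells of either genotype were grown without feeder cells on gelatin, in high-glucose medium with serum and leukaemia inhibitory factor, which keeps stem cells undifferentiated. The labels name 1 wild-type and 1 knockout cell source, so Sirt1 loss and any other difference between these sources cannot be told apart. Nothing in the labels says whether the 3 samples of a genotype were separate cultures. The p-values therefore rest on the spread among these arrays alone, and that spread may be technical.

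DNA replication begins at origins, which are bound by the origin recognition complex (ORC). In G1 phase, ORC and Cdc6, with Cdt1, load the ring-shaped MCM helicase onto DNA, a step called licensing. In S phase Cdc45 and the GINS complex join the ring and activate it, DNA polymerase alpha-primase lays primers, polymerases epsilon and delta copy the leading and lagging strands, and the clamp PCNA holds them on DNA. Mouse embryonic stem cells cycle fast, spend a large part of the cycle in S phase and hold high levels of licensing proteins.

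All values are log2 RMA levels, so a difference of 1 is a doubling, and adjusted p-values are limma's with Benjamini-Hochberg adjustment over all 18193 genes. Probe sets differ in their response, so levels of single genes are not ranked against each other, and a level relative to the median or the brightest 60% of genes says only how bright a probe set was. Sirt1 RNA read 10.12, 10.13 and 10.23 in wild type against 8.02, 7.94 and 8.20 in knockout, a log2 change of -2.11 (SE 0.08; adjusted p = 3.98e-05). Where this probe set lies with respect to the deletion is not stated by the labels. Of 12 stem cell markers, all above the median level of genes, 1 rose and 5 fell, and their mean level was 11.21 to 11.25 in wild type and 11.07 to 11.09 in knockout. Nanog and Tdgf1 fell by 0.90 and 0.65 among them, and the 1 that rose was Lin28a, by 0.63. By their mean over the 6 arrays, endoderm markers lay below the median gene level of 5.83 for 10 of 10 genes. In wild type alone Gata6, Dab2, Cubn and Pdgfra lay above it, at 6.23, 6.26, 6.37 and 6.09. Of the 10 genes 6 fell, with a mean level over the list of 5.36 to 5.41 in wild type and 4.45 to 4.60 in knockout. Cubn and Dab2, the endoderm markers that changed most, fell by 2.24 and 1.80 (Dab2 by 0.69 with its probe sets averaged). Of 10 fibroblast or feeder markers 1 rose and 2 fell, Thy1 by 1.07 and Pdgfrb by 0.50 (0.33 with probe sets averaged), with mean levels of 4.19 to 4.23 in wild type and 4.04 to 4.17 in knockout. Their collagens Col1a1, Col1a2 and Col3a1 averaged 3.61, 3.34 and 2.59 in wild type against 3.44, 3.04 and 2.74 in knockout, where the lower quartile of the arrays lay between 3.16 and 3.24. Of 7 neural markers 2 rose, Tubb3 (chromosome 8) by 0.76 among them, and 3 fell, Nefl by 0.84 among them, at mean levels of 5.51 to 5.59 in wild type and 5.46 to 5.48 in knockout. Of 7 mesoderm markers limma called 0, and at an unadjusted p under 0.05 there was 1 (mean level 4.39 to 4.63 and 4.50 to 4.64). Limma called 50% of the stem cell, 60% of the endoderm, 30% of the fibroblast or feeder and 71.4% of the neural markers. It called 30.0% of all genes and 44.8% of the brightest 60% of genes. The part of other cell types in the values below was not tested. In RNA of whole cultures, fewer cells of a type and less RNA per cell cannot be told apart.

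The replication genes changed little, and in either direction. In the knockout 6 of 41 rose (Orc3, Orc4, Orc6, Cdt1, Mcm5 and Gins2) and 8 fell (Mcm4, Mcm7, Cdc45, Mcm10, Pola1, Prim1, Pole and Rfc4), while 27 did not pass the threshold of an adjusted p under 0.05. The 14 called genes made up 34.1% of the members, against 30.0% of all genes, and the shares for all genes were 12.5% higher and 17.5% lower. All members lay in the brightest 60% of genes, in which 44.8% were called (19.2% higher and 25.6% lower). The members' share was thus near that of all genes and below that of the brightest 60%. Gins3 lay at percentile 57.5 of gene level and every other member at 77.0 or above. The brightest 60% is therefore dimmer as a set, and no share at matched level was computed. No member changed 2-fold, as 1.93% of all genes did with an adjusted p under 0.05. A change of at least 1.25-fold in either direction was seen for 4 members (Gins2, Cdt1, Pola1 and Rfc4), or 9.76%, against 20.9% of all genes and 29.5% of the brightest 60%. The median log2 change of the members was -0.03 and their median absolute change 0.11. For all genes these were -0.01 and 0.14, and for the brightest 60% they were -0.03 and 0.19. Without knockout replicate 2 the number of called members was 9. The number called lower was 4 when wild-type replicate 1 or knockout replicate 2 was left out, and 5 without wild-type replicate 2 or knockout replicate 3. The mean level over the 41 genes was 10.05, 10.04 and 10.06 in wild type against 10.02, 10.04 and 10.05 in knockout, and the arrays of the genotypes overlapped.

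**Figure D1:**
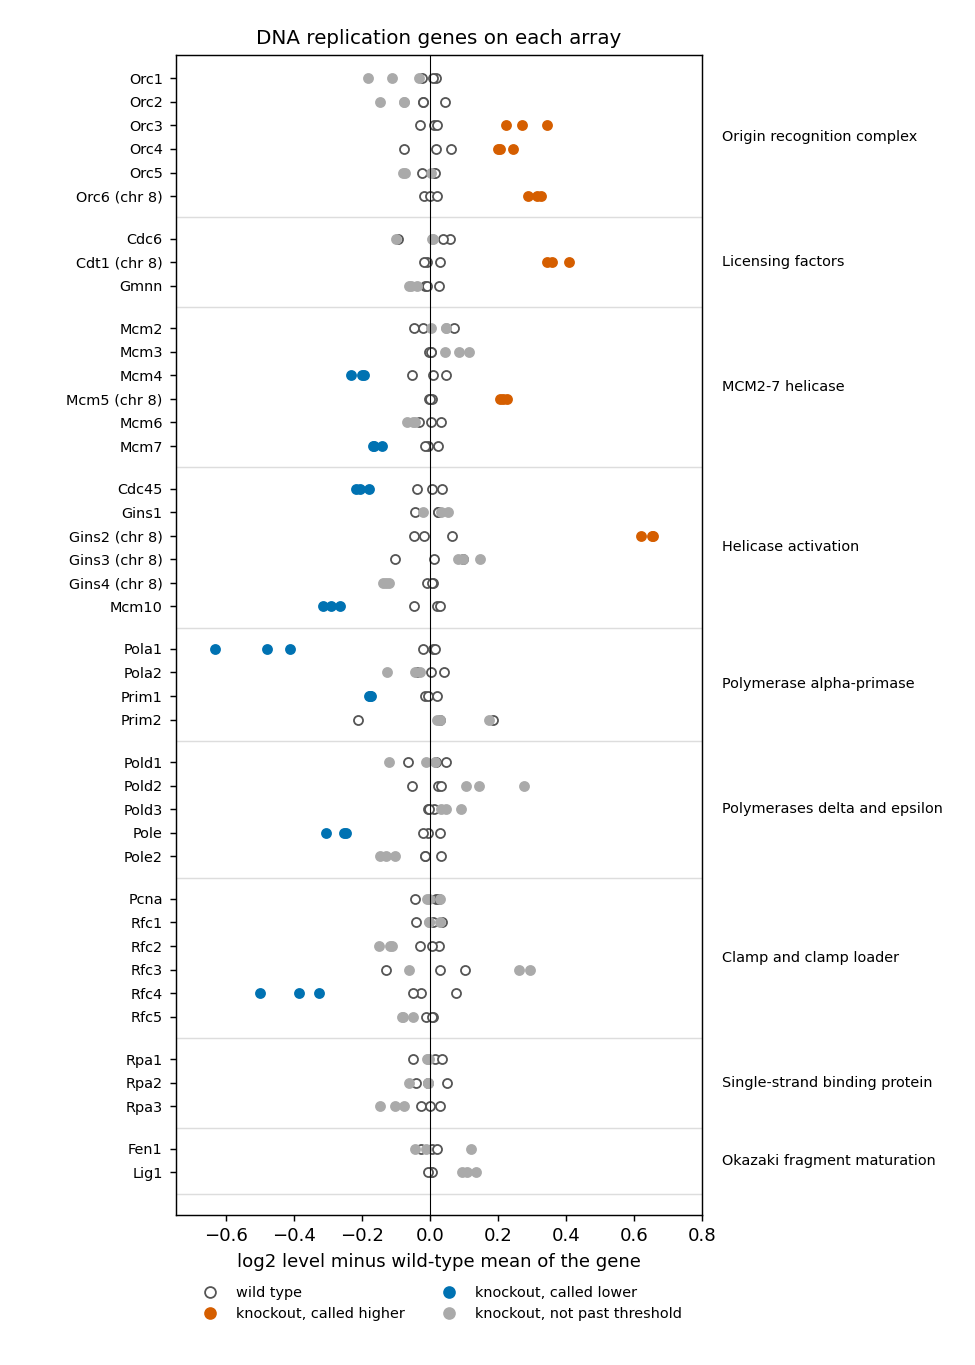
Level of each of the 41 replication genes on each array, in log2 units relative to the gene's own wild-type mean, with genes in rows grouped by complex. Open circles are the 3 wild-type arrays and filled circles the 3 knockout arrays, coloured where the gene was called higher (6 genes) or lower (8 genes), and Gins2 stands farthest to the right, Pola1 farthest to the left.

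**Figure D2:**
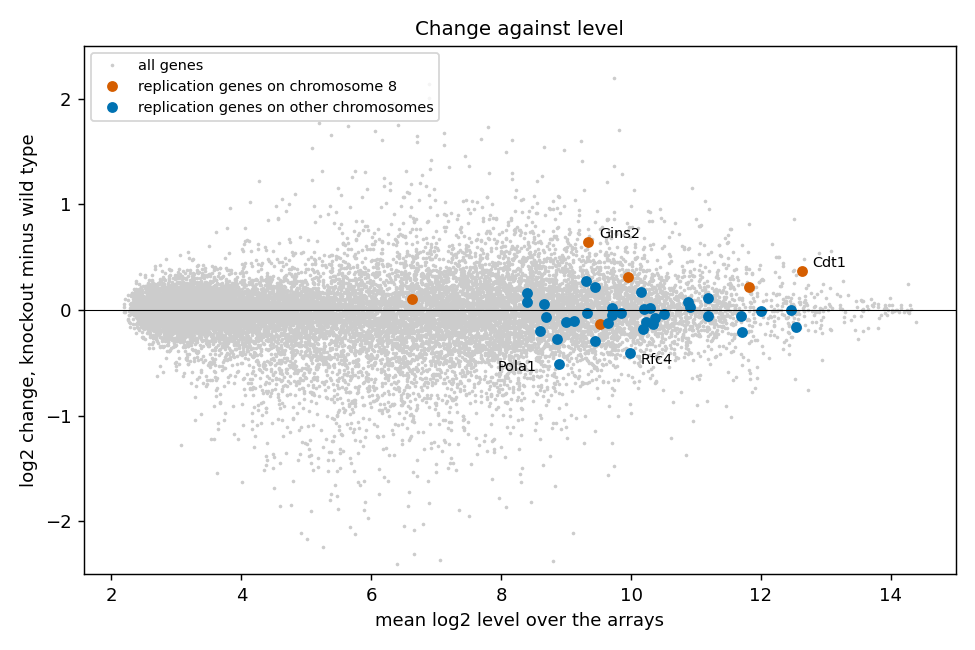
Log2 change (knockout minus wild type) of all genes (grey) against their mean log2 level over the 6 arrays, with the 6 replication genes of chromosome 8 in orange and the other 35 in blue. The replication genes lie between -0.51 (Pola1) and 0.64 (Gins2), inside the spread of grey points at like level, and 5 genes beyond 2.5 in either direction are not drawn.

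Genes of replication are classical targets of E2F transcription factors, which bind TTTGGCGC, TTTCCCGC and related sequences at promoters. The 250 bases before the RefSeq start sites (GRCm38.p6) were searched on both strands for TTTGGCGC, TTTCCCGC, TTTGCCGC and TTTCGCGC, whose matches may overlap. Promoter windows were at hand for 33 of the 41 members, and 9 of them (27.3%) held a match, against 2.16% of all 27025 genes with a window and 4.15% of the 8874 such genes among the brightest 60%. The 8 members without a window, the called Gins2, Mcm4 and Pole among them, were not searched. Of the genes with a match Mcm5 and Orc3 rose, Mcm7 and Pola1 fell, and Mcm6, Cdc6, Gins3, Orc1 and Rfc3 did not pass. A match thus stood before genes of either direction. A window of 100 bases around the match is shown for the called genes and for Mcm6, with the matches in capitals. In Mcm5 and Mcm6 matches on opposite strands overlap, which makes the capitals longer. Mcm6 held 3 matches in the 250 bases searched, and its window shows 2 of them. The windows lie at chr8:75109310-75109409 (plus strand) for Mcm5, chr4:34614943-34615042 (minus) for Orc3, chr5:138171995-138172094 (minus) for Mcm7, chrX:93632240-93632339 (minus) for Pola1 and chr1:128359762-128359861 (minus) for Mcm6, all on GRCm38.p6 and upstream of the gene's start.
Mcm5: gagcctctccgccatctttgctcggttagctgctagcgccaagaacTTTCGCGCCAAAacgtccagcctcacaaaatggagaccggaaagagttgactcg
Orc3: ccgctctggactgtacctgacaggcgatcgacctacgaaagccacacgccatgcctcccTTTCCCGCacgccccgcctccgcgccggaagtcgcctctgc
Mcm7: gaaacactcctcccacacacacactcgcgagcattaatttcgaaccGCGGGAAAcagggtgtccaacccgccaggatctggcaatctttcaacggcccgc
Pola1: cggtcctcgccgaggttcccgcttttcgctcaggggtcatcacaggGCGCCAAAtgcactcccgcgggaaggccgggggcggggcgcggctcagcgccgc
Mcm6: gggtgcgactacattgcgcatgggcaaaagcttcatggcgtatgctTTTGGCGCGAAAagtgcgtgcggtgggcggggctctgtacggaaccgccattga

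In the origin recognition complex, which marks origins, 3 of 6 subunits rose and none of the other 3 passed. Orc6 (chromosome 8), the smallest subunit, read 9.79, 9.80 and 9.83 in wild type against 10.09, 10.12 and 10.13 in knockout. Its change was 0.31 (SE 0.04; adjusted p = 0.00246), or 1.24-fold, with no overlap between the groups. Orc3 read 9.14, 9.18 and 9.19 in wild type against 9.44, 9.51 and 9.39 in knockout, a change of 0.28 (SE 0.05; adjusted p = 0.00742). All 3 knockout arrays lay above wild type, and the other 2 probe sets of Orc3 read 0.24 and 0.32. The brightest Orc4 probe set read 9.39, 9.25 and 9.35 in wild type against 9.53, 9.58 and 9.54 in knockout, a change of 0.22 (SE 0.05; adjusted p = 0.0237). For Orc4 the direction depended on the probe set. A dimmer one, read at 7.21, 7.29 and 7.24 in wild type against 6.62, 6.89 and 6.96 in knockout, fell by 0.42 (limma over the 34945 single-gene probe sets, adjusted p = 0.0189). Another read -0.28 and did not pass, and one near background (3.17 in wild type) rose by 0.59. The Orc4 call on the brightest probe set was lost without wild-type replicate 2 (adjusted p = 0.0607) or 3 (0.0553), and without knockout replicate 1 (0.0528), 2 (0.0777) or 3 (0.0630). Orc1, the subunit with a cell-cycle-regulated level in many cells, read 9.06 ± 0.02 and 8.95 ± 0.08 (SD, n = 3 each; change -0.11, adjusted p = 0.195). The change of Orc2 was -0.10 and that of Orc5 -0.05, neither past the threshold.

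Among the licensing factors Cdt1 rose, while Cdc6 and geminin did not pass. Cdt1, the MCM loader that is destroyed in S phase, lies on chromosome 8. It read 12.43, 12.47 and 12.42 in wild type against 12.85, 12.79 and 12.80 in knockout, a change of 0.37 (SE 0.05; adjusted p = 0.00151), or 1.29-fold. The knockout arrays all lay above wild type, and a further probe set rose by 0.45. Gmnn encodes geminin, the protein inhibitor of Cdt1. It read 11.19, 11.19 and 11.23 in wild type against 11.14, 11.16 and 11.15 in knockout. The Gmnn values did not overlap but their change of -0.05 did not pass (adjusted p = 0.427; 95% interval -0.16 to 0.05). Cdc6, the ATPase that recruits Cdt1 and the helicase to ORC, read 9.33 ± 0.08 and 9.30 ± 0.06 (SD, n = 3 each; change -0.03, adjusted p = 0.783), with overlapping arrays.

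The 6 subunits of the MCM2-7 ring, which assemble in equal number, included 1 that rose, 2 that fell and 3 that did not pass. Mcm5 (chromosome 8) read 11.71, 11.70 and 11.70 in wild type against 11.92, 11.91 and 11.93 in knockout, a change of 0.22 (SE 0.04; adjusted p = 0.00904). Mcm4 read 11.82, 11.86 and 11.75 in wild type against 11.61, 11.58 and 11.62 in knockout, a change of -0.21 (SE 0.05; adjusted p = 0.0183). Mcm7 read 12.62, 12.65 and 12.61 in wild type against 12.48, 12.46 and 12.46 in knockout, a change of -0.16 (SE 0.04; adjusted p = 0.0334). The groups did not overlap for any of the 3 genes, although each change was under 1.25-fold. A further Mcm5 probe set rose by 0.34. The Mcm4 call was lost without wild-type replicate 1 (adjusted p = 0.0663) or 2 (0.0557) or knockout replicate 2 (0.0637). The Mcm7 call was lost without any 1 of the 6 arrays (adjusted p between 0.0633 and 0.0956), and its other 3 probe sets read -0.03 to -0.08. The change was 0.03 for Mcm2, 0.08 for Mcm3 and -0.05 for Mcm6, and none of them passed. The 95% interval of these 3 genes reached at most 0.19 in either direction (Mcm3, -0.03 to 0.19).

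The factors that activate the helicase held the largest rise among the members and a pair of falls. Gins2 (chromosome 8), a subunit of the 4-part GINS complex, read 9.00, 8.97 and 9.09 in wild type against 9.64, 9.67 and 9.68 in knockout. Its change was 0.64 (SE 0.05; adjusted p = 0.000278), or 1.56-fold, and every knockout array lay above wild type. Its other probe set rose by 0.63 (limma over probe sets, adjusted p = 0.000697). The other GINS subunits did not pass. Gins1 read 9.65, 9.72 and 9.72 in wild type against 9.73, 9.75 and 9.68 in knockout (change 0.02, 95% interval -0.10 to 0.14). Gins3, also of chromosome 8, changed by 0.11 (adjusted p = 0.267), and Gins4, of chromosome 8 too, by -0.13 (adjusted p = 0.0578). Gins4 read 9.59, 9.57 and 9.59 in wild type against 9.46, 9.45 and 9.45 in knockout, so its arrays did not overlap and were lower in knockout. Cdc45, which completes the active helicase with MCM and GINS, read 8.74, 8.67 and 8.71 in wild type against 8.52, 8.49 and 8.50 in knockout, a change of -0.20 (SE 0.05; adjusted p = 0.0165). The Cdc45 call was lost without wild-type replicate 1 (adjusted p = 0.0672) or knockout replicate 2 (0.0574) or 3 (0.0550). Mcm10, a factor of helicase firing outside the ring, read 9.60, 9.61 and 9.54 in wild type against 9.29, 9.27 and 9.32 in knockout, a change of -0.29 (SE 0.05; adjusted p = 0.00440). The groups did not overlap. The other 2 Mcm10 probe sets, with means of 4.17 to 4.74 and so below the median gene level, changed by 0.12 and 0.21, which limma did not call.

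Polymerase alpha-primase, which makes the RNA-DNA primers, had 2 of 4 subunits lower. Pola1, its catalytic subunit (chromosome X), read 9.12, 9.15 and 9.16 in wild type against 8.51, 8.66 and 8.73 in knockout. The change of -0.51 (SE 0.07; adjusted p = 0.00191) was the largest fall among the members, a 1.42-fold lower level, and all knockout arrays lay below wild type. Prim1, the catalytic primase subunit, read 10.26, 10.27 and 10.30 in wild type against 10.10, 10.10 and 10.10 in knockout, a change of -0.18 (SE 0.04; adjusted p = 0.0204). The Prim1 call was lost without any 1 of the 6 arrays (adjusted p between 0.0506 and 0.0626). The subunits without catalytic activity did not pass. Pola2 read 8.72 ± 0.04 and 8.65 ± 0.05 (change -0.07, adjusted p = 0.390), and Prim2 read 8.36 ± 0.20 and 8.43 ± 0.09 (SD, n = 3 each; change 0.07, adjusted p = 0.685). Prim2 had the widest spread between wild-type arrays of all members, and its interval of -0.19 to 0.33 leaves a change of the size of Orc6 within reach.

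Of the 5 members among the replicative polymerase genes only Pole, the catalytic subunit of the leading-strand polymerase epsilon, passed in limma. It read 8.99, 8.98 and 9.03 in wild type against 8.69, 8.75 and 8.75 in knockout, a change of -0.27 (SE 0.05; adjusted p = 0.00524), or 1.21-fold lower. The groups did not overlap. Its partner Pole2 read 10.43, 10.38 and 10.38 in wild type against 10.25, 10.27 and 10.29 in knockout, lower on every array but not past the threshold (change -0.13, adjusted p = 0.0759). Among the subunits of polymerase delta the change was -0.04 for the catalytic Pold1, 0.06 for Pold3 and 0.17 for Pold2 (adjusted p = 0.0797). Pold2 read 10.08, 10.01 and 10.09 in wild type against 10.21, 10.17 and 10.34 in knockout, again without overlap. Pole3, Pole4 and Pold4, further subunits of these polymerases, are not among the members. They rose, by 0.48, 0.19 and 0.47, and are given with the accessory factors.

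The clamp PCNA, which encircles DNA behind the fork, did not pass, and 1 of the 5 subunits of its loader RFC fell. Pcna read 12.48, 12.49 and 12.42 in wild type against 12.49, 12.46 and 12.45 in knockout. Its change was 0.0044 with a 95% interval of -0.11 to 0.11, and the arrays of the genotypes overlapped. Rfc4, a small loader subunit, read 10.16, 10.26 and 10.14 in wild type against 9.69, 9.86 and 9.80 in knockout, a change of -0.41 (SE 0.06; adjusted p = 0.00430), or 1.32-fold lower. The knockout arrays all lay below wild type, and a further Rfc4 probe set fell by 0.52. The change was 0.0081 for Rfc1, the large subunit, -0.13 for Rfc2 (adjusted p = 0.0777), 0.16 for Rfc3 (0.347) and -0.07 for Rfc5 (0.281). Rfc2 did not overlap between genotypes, at 9.73, 9.71 and 9.68 against 9.60, 9.56 and 9.59. Rfc3 was the most variable of the knockout group, at 8.26, 8.62 and 8.58 (interval -0.11 to 0.43).

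The single-strand binding protein RPA and the enzymes that join Okazaki fragments gave no call. Of the 3 RPA genes none passed in limma, and none had an unadjusted p under 0.05. Rpa1, the large DNA-binding subunit, read 12.02, 12.05 and 11.96 in wild type against 12.01, 12.00 and 12.00 in knockout (change -0.0067, 95% interval -0.12 to 0.10). The change of Rpa2 was -0.03, and that of Rpa3 was -0.11 (adjusted p = 0.129), with Rpa3 lower on all knockout arrays. Fen1, the flap nuclease, read 10.29, 10.31 and 10.26 in wild type against 10.41, 10.24 and 10.27 in knockout (change 0.02, adjusted p = 0.843). Lig1, the ligase, read 11.12, 11.13 and 11.11 in wild type against 11.26, 11.23 and 11.21 in knockout. Lig1 was higher on every knockout array, with an unadjusted p under 0.05, but its change of 0.11 did not pass (adjusted p = 0.0986).

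Among the 27 members not past the threshold, changes ran from -0.13 (Gins4) to 0.17 (Pold2), 12 positive and 15 negative. For 23 of them the 95% interval of the change lay within 0.25 log2 units of 0. The groups did not overlap for 27 of the 41 members (65.9%), the 14 called genes and 13 others, against 43.8% of all genes and 62.5% of the brightest 60%. The members' share was thus near that of the brightest 60%, a set not matched to the members in level.

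Of the 6 genes that rose, 4 lie on chromosome 8. On that chromosome 4 of 6 members rose (Orc6, Cdt1, Mcm5 and Gins2) and none fell, with a median change of 0.26. Of the 35 members on other chromosomes 2 rose (Orc3 and Orc4) and 8 fell, with a median change of -0.05. Genes of chromosome 8 as a whole were called higher in 33.6% of 932 cases, and in 49.8% of the 603 in the brightest 60%. The shares called higher on the other chromosomes were 11.3% and 17.4%, and those called lower 17.9% and 26.2%. The median change of the brighter genes was 0.22 on chromosome 8 and -0.04 elsewhere. Gins3 and Gins4 are the members of chromosome 8 that were not called. Away from chromosome 8, 28.6% of the members were called, against 29.3% of all genes there and 43.6% of those in the brightest 60%. The same 10 were called when the fit left out chromosome 8, where 28.9% of genes passed. The called members of chromosome 8 were thus higher together with many other genes of that chromosome. Whether the knockout cells carry an altered copy number of chromosome 8 was not tested.

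The 41 members had 89 probe sets, of which 10 were called higher and 9 lower when all 34945 single-gene probe sets were tested, where 24.7% were called. Of the 14 called members 12 had more than 1 probe set, and in 10 of these all probe sets had the same sign. The exceptions were Orc4 and Mcm10. Orc4 was the only member with probe sets called in opposite directions. Gins2, Cdt1, Mcm5 and Rfc4 each had a further called probe set in the direction of the brightest one, as did Orc4 with its probe set near background. No probe set of Mcm7 was called in this fit (limma over probe sets, adjusted p = 0.0614 for the brightest). Probe sets with an x or s in their name can also bind RNA of related genes or several transcripts. The brightest probe set was of that kind for 7 members, 3 of them called (Mcm5, Mcm7 and Gins2).

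**Figure D3:**
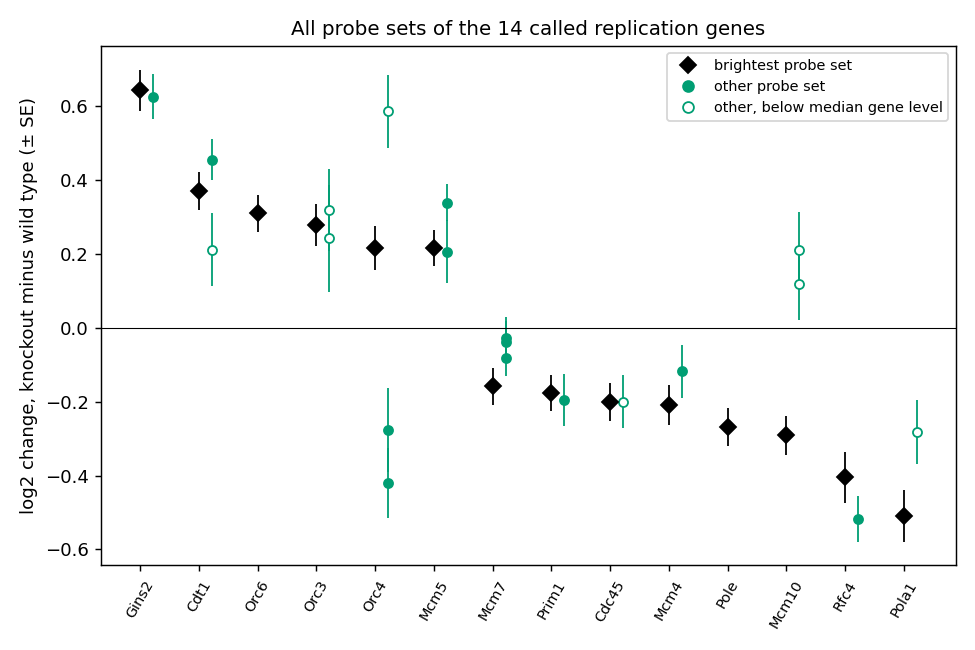
Log2 change (knockout minus wild type, ± SE of the fit over all single-gene probe sets) of every probe set of the 14 called replication genes, ordered by the change of the brightest probe set. Diamonds are the brightest probe sets and circles the others, open where the mean level is below the median gene level of 5.83, and Orc4 shows probe sets on either side of 0.

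Genes that work beside this machinery were read from 4 further lists, chosen with earlier results of these arrays known. Of 30 measured genes of fork and initiation accessory factors 10 rose and 6 fell, with a median change of 0.0075. Asf1b (chromosome 8), a histone chaperone, rose by 0.58 (adjusted p = 0.000248), and Mtbp, a partner of the origin-firing factor Ticrr, rose by 0.52. Mtbp read 7.44, 7.55 and 7.56 in wild type against 7.96, 8.03 and 8.12 in knockout, with no overlap. Pole3 and Pold4, small subunits of polymerases epsilon and delta, rose by 0.48 and 0.47, while Pole itself fell. Pole4, a further small subunit of polymerase epsilon, rose by 0.19 (adjusted p = 0.0370). The 2 further probe sets of Pole3 changed by 0.26 and 0.27, which limma did not call. Of 14 genes of nucleotide supply 4 rose and 3 fell, with a median of 0.01. Tk1, thymidine kinase, rose by 0.46, Cad, which starts pyrimidine synthesis, by 0.40 and the dUTPase Dut by 0.38, and the dNTP hydrolase Samhd1 fell by 0.37 (0.20 with probe sets averaged).

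Of 13 E2F and pocket protein genes 1 rose and 5 fell by their brightest probe sets, with a median of -0.06. The factors E2f1, E2f2 and E2f3 did not pass (changes -0.15, 0.11 and 0.03), while E2f6 and E2f7 fell by 0.21 and 0.23. The remaining E2F genes of the list, E2f4 (chromosome 8), E2f5 and E2f8, did not pass either (changes 0.21, 0.02 and -0.03). Tfdp2, a dimer partner of E2F factors, read 10.14, 10.11 and 10.10 in wild type against 9.25, 9.23 and 9.13 in knockout, a fall of 0.91 (adjusted p = 0.000104). Another Tfdp2 probe set was called higher, by 0.26, and with all its probe sets averaged Tfdp2 fell by 0.19. Rb1, the retinoblastoma protein, fell by 0.47 (0.24 with probe sets averaged), and the related Rbl2 (chromosome 8) rose by 0.42. For Rbl1, the third pocket protein, the brightest probe set was lower by 0.56 in knockout (8.44, 8.29 and 8.46 in wild type, 7.83, 7.85 and 7.83 in knockout). Another Rbl1 probe set rose from 6.56 to 8.21, a change of 1.65 (limma over probe sets, adjusted p = 0.000199), so no single direction can be given for Rbl1. Of 23 mitotic genes 2 rose and 8 fell, with a median of -0.11. The spindle motor Kif11 fell by 0.54, the kinetochore motor Cenpe by 0.49 and Cenpf by 0.28, and Aurkb rose by 0.26. The mean level of the accessory factors was higher in knockout without overlap, at 8.88 to 8.90 in wild type against 8.94 to 8.97. That mean includes genes of chromosome 8. Of the 27 accessory factors on other chromosomes 8 rose and 6 fell, with a median change of -0.02. The mean of the E2F and pocket protein genes was lower without overlap (7.94 to 7.99 against 7.82 on each knockout array), as was that of the mitotic genes (10.86 to 10.89 against 10.76 to 10.77). The E2F and pocket protein mean, like the count of falls, takes Tfdp2 and Rbl1 as lower by their brightest probe sets. Other probe sets of both genes were called higher. The mean of the nucleotide supply genes overlapped (9.75 to 9.80 against 9.76 to 9.80). The share called in these 4 lists ran from 43.5% (mitotic genes) to 53.3% (accessory factors), beside 34.1% of the replication genes and 44.8% of the brightest 60% of genes. The difference between these shares was not tested.

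**Figure D4:**
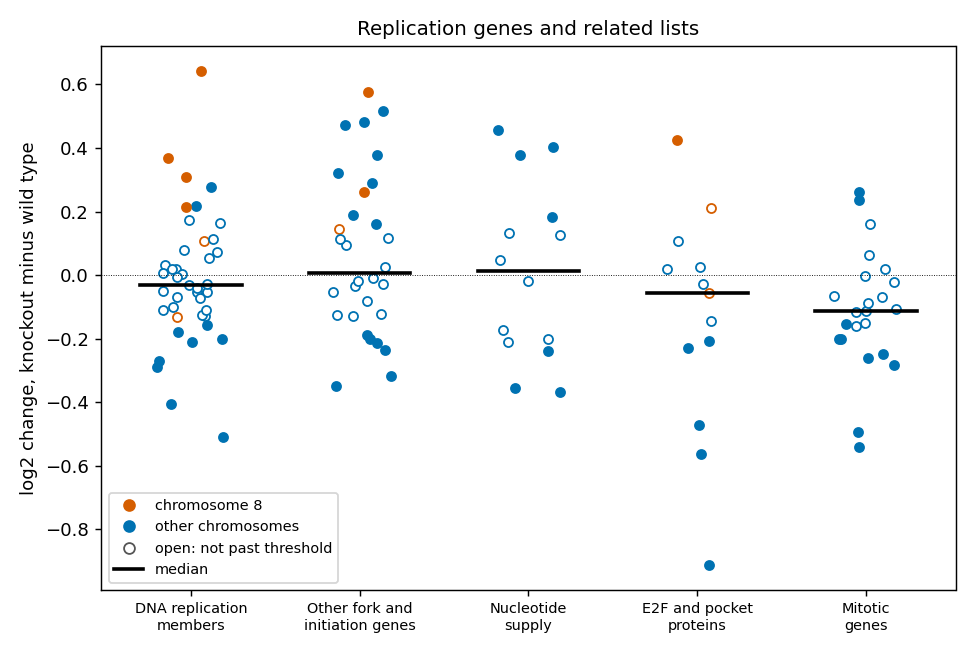
Log2 change (knockout minus wild type) of each measured gene in 5 lists (41 replication genes, 30 accessory factors, 14 genes of nucleotide supply, 13 E2F and pocket protein genes and 23 mitotic genes), with chromosome 8 in orange. Filled points passed the threshold of an adjusted p under 0.05, bars are list medians, and points are spread sideways at random for legibility; the replication genes centre near 0 (median -0.03) and 4 of their 6 filled points above 0 are of chromosome 8.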

How the data were processed

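RNA of each of the 6 samples was read on its own Affymetrix 3' array. The deposited values are log2 levels, which the submitters' processing notes credit to RMA in Partek 6.5 without its settings. The log2 scale fits the values' range. RMA normalises arrays by quantiles, so a shift of all RNAs would not show.

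Of 45101 probe sets, 64 controls, 932 with several symbols and 9160 with none were left out. The other 34945 gave 18193 genes. The platform annotation named them, and 18031 matched RefSeq (GRCm38.p6) by Entrez identifier, which gave chromosomes. The test was limma 3.58.1 under R 4.3.3 (lmFit and eBayes on genotype, two-sided, 4 residual degrees of freedom before moderation), with p-values adjusted by Benjamini-Hochberg across all genes and called at 0.05. Intervals are 95% limits of that fit. The procedure was tested on simulated data. The members, lists and tests were chosen with earlier results of these data known.

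All members are named, with array values for the called ones, and up to 4 called genes of each further list and 2 of each marker list by size of change. Uncalled members with array values, the 3 collagens, the 4 endoderm markers with wild-type levels and E2f1 to E2f8 were chosen after their values were seen. A few listed genes are not reported here. Alternatives were repeated quantile normalisation, median centring, a filter on the dimmest 40% of genes, averaged probe sets, an intensity trend with robust variance, the replicate number as a block, an adjusted p under 0.01, and omission of chromosome 8 or of each array.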

Additional observations from a re-analysis of the deposited data

How the results depend on the processing

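The members called were 14, and 9 to 11 when 1 array was left out (5 to 6 higher, 4 to 6 lower, all of them among the 14). Their median change was then -0.0471 to -0.0022, and 4104 to 4753 of all genes were called. At an adjusted p under 0.01, 9 members (4 lower) and 3356 genes passed. The 9 were Orc3, Orc6, Cdt1, Mcm5, Gins2, Mcm10, Pola1, Pole and Rfc4, which also stayed called in every other setting that held them, except Mcm10 with probe sets averaged. Without chromosome 8, 2 members were higher and the median was -0.0505. The median was -0.0482 after repeated quantile normalisation, -0.0112 with median centring and -0.0167 with probe sets averaged. Averaging gave 0.0128 for Mcm10 (adjusted p = 0.913), -0.0467 for Prim2, 0.0076 for Rpa1 and 0.39 for Rbl1, each of the opposite sign, and Orc4 and Mcm7 were no longer called (adjusted p = 0.814 and 0.265). Median centring gave 0.0121 for Rpa1 and ended the calls of Mcm7 (0.0894) and Prim1 (0.0723). Repeated quantile normalisation gave -0.00080 for Pcna and -0.0091 for Rfc1. Leaving out 1 array gave ranges that crossed 0 for Cdc6 (-0.0778 to 0.0059), Gins1 (-0.0020 to 0.0419), Prim2 (-0.0338 to 0.17), Pold1 (-0.0715 to 0.0017), Pcna (-0.0179 to 0.0177), Rfc1 (-0.0131 to 0.0252), Rpa1 (-0.0316 to 0.0112) and Fen1 (-0.0293 to 0.0535). The cause of these differences was not tested. With the replicate number as a block, 10 members were called, 5 lower, and Orc4, Mcm4, Mcm7 and Prim1 were lost. Deviations of like-numbered arrays correlated at 0.0515, -0.0865 and 0.198 across genes, so the numbers are not taken to pair the samples. More members were called without the dimmest 40% of genes (20, where 53.9% of genes passed) and with an intensity trend (21, where 35.4% passed), with the 14 among them. The number of arrays, 3 per genotype, limits all of these values.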
